A study of Mus musculus with 2 samples.

Results

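The Nedd4 family of ubiquitin ligases and its Ndfip adaptors was followed in mouse morulae, the compacted embryos that precede the blastocyst. The 9 genes were taken by symbol from a deposited table of 12836 genes. They are the ligases Nedd4, Nedd4l, Itch, Wwp1, Wwp2, Smurf1 and Smurf2 and the adaptors Ndfip1 and Ndfip2. All 9 were present in the table. The family was chosen by the ratio of Nedd4 reads between the libraries, which earlier results of these data had shown to be large, so the values of Nedd4 are given as a description.

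RNA came from morulae of the ICR strain that had been injected with double-stranded RNA. In the dsNat10 library that RNA targeted Nat10, and in the dsGFP library, the control, it targeted GFP, a jellyfish gene that mice lack. Nat10 encodes the enzyme that writes N4-acetylcytidine on RNA, and the series concerns that mark on Nop2 mRNA in the step from morula to blastocyst. The embryos were pooled, and the protocol names 50 injected morulae without saying whether that number is per library. There was 1 library per group, so no value below has a replicate error, no test across samples was possible, and every difference describes this pair of libraries. In bulk RNA of this kind, fewer cells of a type and less RNA per cell cannot be told apart.

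Nedd4 family ligases attach ubiquitin to membrane proteins and signalling factors and so send them to the lysosome or the proteasome. Each carries a membrane-binding C2 domain, WW domains that hold short proline and tyrosine motifs of the substrate, and a catalytic HECT domain that takes ubiquitin onto its own cysteine before passing it on. Ndfip1 and Ndfip2 are membrane proteins of endosomes and the Golgi whose motifs bind the WW domains, which recruits and activates the ligases. Angiomotins and other junction and Hippo proteins of the early embryo carry such motifs, and in embryonic stem cells Wwp2 is known to ubiquitinate the pluripotency factor Oct4 (Pou5f1).

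The target of the injection was lower in the library labelled dsNat10: Nat10 had 37 reads in dsNat10 against 886 in dsGFP, 4.22% of the dsGFP level. Nop2 had 5787 reads in dsNat10 against 8365 in dsGFP. The libraries summed to 28303119 (dsNat10) and 29139232 (dsGFP) estimated reads, and 2657 genes in dsNat10 and 458 in dsGFP were at 0. The labelled stage was checked against trophectoderm and inner cell mass markers, of which 7 of 7 and 5 of 6 were in the table, with both summed levels lower in dsNat10 (2648 against 2891 CPM, and 457 against 1025 CPM). CPM are scaled reads per 1000000 reads. The trophectoderm markers went both ways: Krt8 (429 CPM in dsNat10 against 899 in dsGFP), Krt18, Tead4 and Cdx2 were lower, and Gata3 (1400 against 1054 CPM), Tfap2c and Eomes (374 reads against 4) were higher. Of the inner cell mass markers, 4 were lower and 1, Tdgf1, was higher. Of 7 oocyte markers, 3 were in the table, and their sum was 32.5 CPM in dsNat10 against 5.54 CPM in dsGFP (Zp3 was higher, H1f8 had 286 reads in dsNat10 against 0 in dsGFP, and Gdf9 had 1 read in dsNat10 against 54 in dsGFP). Of 6 cumulus cell markers 1 was in the table, at 29.1 CPM in dsNat10 against 33.8 CPM in dsGFP, and 4 of 7 blood and fibroblast markers summed to 92.2 CPM in dsNat10 against 73.3 CPM in dsGFP. Of those 4, Pecam1 was higher (65.8 CPM in dsNat10 against 35.9 in dsGFP), and Hba-a1 (2.87 against 6.65 CPM), Cd68 (23.6 against 30.5 CPM) and Col1a1 (0 reads against 9) were lower. The part of these markers in the results below was not tested.

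Nedd4, the founding ligase of the family, lies on chromosome 9 (GRCm38, 72662331 to 72749851, Entrez gene 17999). RefSeq (GRCm38.p6) gives it 2 start sites, and the 250 bases before each are shown because Nedd4 is the member with the large difference. The expression values are sums over the gene, so they do not say which start was used. Both windows are on the plus strand, in lower case with each CG dinucleotide in capitals.
Nedd4 first start, chr9:72662081-72662330: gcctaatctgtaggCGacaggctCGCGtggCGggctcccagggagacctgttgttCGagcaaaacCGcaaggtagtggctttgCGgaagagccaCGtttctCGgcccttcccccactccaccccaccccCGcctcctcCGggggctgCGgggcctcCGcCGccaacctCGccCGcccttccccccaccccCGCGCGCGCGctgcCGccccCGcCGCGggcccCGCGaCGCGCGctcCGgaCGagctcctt
Nedd4 second start, chr9:72693048-72693297: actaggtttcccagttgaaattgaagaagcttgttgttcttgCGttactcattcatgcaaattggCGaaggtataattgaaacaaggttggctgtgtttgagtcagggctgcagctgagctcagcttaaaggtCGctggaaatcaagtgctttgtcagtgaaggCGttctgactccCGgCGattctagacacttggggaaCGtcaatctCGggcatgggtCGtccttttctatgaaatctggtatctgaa
The first window held 32 CG dinucleotides at 74.0% G and C, and the second held 9 at 46.0%. Over 32851 RefSeq promoter windows of the same length, the medians were 6 CG dinucleotides and 52.4% G and C. On both strands, the GC box GGGCGG was found 2 times in the first window (32.7% of all windows hold it), and the CCAAT box was found 1 time in the second (33.8% of all windows). Neither window held TATAAA, which 12.4% of all windows hold, or CACGTG, which 6.02% hold, and these matches describe letters and not bound sites. Windows were at hand for 5 of the 9 members, and those of Smurf1, Smurf2, Wwp2 and Ndfip2 held 38, 38, 22 and 11 CG dinucleotides.

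Nedd4 had 2096 reads in dsNat10 and 11 reads in dsGFP. That is 73.4 CPM in dsNat10 against 0.381 CPM in dsGFP, a 193-fold higher level with a counting interval of 107 to 386. The interval is exact (Clopper-Pearson, 95%) and covers counting error only, because reads copied by PCR without molecular identifiers are not independent molecules. The dsGFP level is above the 0.104 CPM that 3 reads would give in that library. Per length, the deposited values were 20.3 TPM in dsNat10 and 0.10 TPM in dsGFP. All log2 ratios here are given on the scale of CPM plus 1. On it the ratio of Nedd4 was 5.75, the highest of the 8738 genes that had a mean of 5 CPM or more. Without the added 1 that rank was not held: some genes with fewer dsGFP reads had larger folds, as given below. Of 896 genes within 1.2-fold of the mean CPM of Nedd4, 1 had a log2 ratio as high, which was Nedd4 itself. It was also the only gene of the table at 50 CPM or more in dsNat10 and under 1 CPM in dsGFP. There were 3565 genes at 50 CPM or more in dsNat10, and these limits were set with the values of Nedd4 known. The opposite pattern, 50 CPM or more in dsGFP and under 1 CPM in dsNat10, was met by 8 genes out of 3539.

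The genes whose pair of levels lay nearest to that of Nedd4 were Zfp438, Rasa1 and Tns1, by distance between log2 levels over the 2 libraries. Zfp438, a zinc finger protein, had 1088 reads in dsNat10 and 25 in dsGFP. Rasa1, a GTPase-activating protein for Ras, had 1055 in dsNat10 and 1 in dsGFP, with fractional estimated counts that leave it uncertain. Tns1, a focal adhesion protein, had 1019 in dsNat10 and 4 in dsGFP. Their distances were 1.02, 1.06 and 1.06 log2 units, so none was close. With no pseudocount, Rasa1 (1066-fold) and Tns1 (257-fold) had larger folds than Nedd4 (193-fold), while Zfp438 (44.0-fold) had a smaller one. On the chromosome, the nearest measured genes on either side went opposite ways. Prtg, a cell-surface protein of the immunoglobulin superfamily that starts 57.4 kb beyond Nedd4, had 725 reads in dsNat10 and 16 in dsGFP, 45.8-fold higher (28.0 to 80.5), and stood at rank 55 of the genes tested. Rfx7, a transcription factor 39.4 kb before Nedd4, had 0 reads in dsNat10 and 207 in dsGFP, at least 55.0-fold lower by the counting interval. Neither overlaps Nedd4, and no gene of the RefSeq table does.

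**Figure D1:**
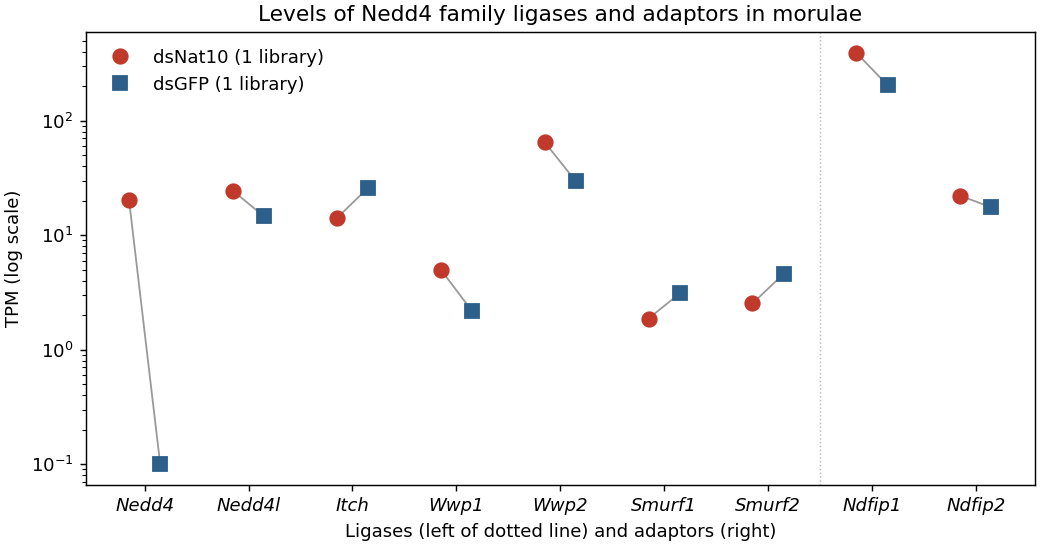
Levels of the 7 ligases and 2 adaptors in TPM on a log axis, with a red circle for the dsNat10 library and a blue square for the dsGFP library of each gene. Nedd4 falls at 20.3 TPM in dsNat10 and 0.10 TPM in dsGFP, while Ndfip1 is the highest member in both libraries.

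The ligase closest to Nedd4 in sequence is Nedd4l (chromosome 18, 64884480 to 65217826, Entrez gene 83814), best known for removing the epithelial sodium channel from the cell surface. It had 6724 reads in dsNat10 and 4757 in dsGFP, or 235 and 165 CPM, 1.43-fold higher (1.38 to 1.48) with a log2 ratio of 0.51. Nedd4l was the 1 member with fractional estimated counts, so some of its reads could belong to another gene and its value is uncertain. In TPM it stood at 24.4 in dsNat10 and 14.6 in dsGFP, beside 20.3 TPM for Nedd4 in dsNat10 and 0.10 TPM in dsGFP. In CPM, which are not divided by length, Nedd4l stood well above Nedd4 in dsNat10 as well, at 235 against 73.4. The nearness of their TPM in dsNat10 rests on the length by which Nedd4l was divided, 14225 bases in dsNat10, while its longest GENCODE M21 transcript has 7787 bases. What made that length was not tested, so the TPM of Nedd4l are uncertain.

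Wwp1 and Wwp2, a further pair of paralogues, both had more reads in dsNat10. Calls follow a size rule, which asks for a mean of 5 CPM or more, a log2 ratio of 1 or more in size in either direction, and a counting interval that leaves out equality. Wwp1 (chromosome 4, 19608296 to 19709004, Entrez gene 107568), a ligase known to act on Klf5 and other transcription factors, had 608 reads in dsNat10 and 278 in dsGFP. It was 2.21-fold higher (1.91 to 2.56), and its log2 ratio of 1.07 met the rule by a small margin. With no pseudocount, Wwp1 was 2.30-fold higher in TPM and 2.25-fold higher in FPKM. Its values on those scales are low, and with 1 added to them its log2 ratio was 0.92 in TPM and 0.81 in FPKM, both short of the rule. Of 860 genes within 1.2-fold of its mean CPM, 180 had a ratio as high (20.9%). Its nearest genes by pattern were Arhgap42, Trp53i11 and Srsf4, with 613, 606 and 631 reads in dsNat10 and 277, 286 and 277 in dsGFP, at distances of 0.012, 0.037 and 0.051 log2 units. Its nearest measured neighbours were Cpne3 (439 reads in dsNat10, 288 in dsGFP) and, 299 kb away, Ttpa (0 in dsNat10, 33 in dsGFP).

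Wwp2 (chromosome 8, 107436334 to 107559290, Entrez gene 66894) was the highest ligase in TPM in both libraries, at 64.9 TPM in dsNat10 and 29.5 TPM in dsGFP. In CPM Nedd4l was higher, at 235 against 154 for Wwp2 in dsNat10 and 165 against 82.1 in dsGFP. The TPM of Nedd4l are uncertain, so this first place of Wwp2 is uncertain too. Wwp2 had 4404 reads in dsNat10 and 2371 in dsGFP, 1.88-fold higher (1.78 to 1.97). Its log2 ratio of 0.90 was short of the rule. In TPM the log2 ratio was 1.11 and in FPKM 1.07, past the size that the rule asks for. Of 600 genes of like mean CPM, 29 had a ratio as high (4.83%). The measured genes beside it, Nob1 and Psmd7, had log2 ratios of 0.14 and -0.34.

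The TPM and CPM ratios of Wwp2 part because the length by which the deposited values were divided was not the same in both libraries. Count and FPKM together imply a length of 3508 bases in dsNat10 and 3940 bases in dsGFP, 11.0% shorter in dsNat10. Nedd4l showed the same, with 14225 bases in dsNat10 and 16036 bases in dsGFP, 11.3% shorter in dsNat10. GENCODE M21 lists 11 transcripts for Wwp2, the longest of 4314 bases, and 34 for Nedd4l. Both lengths implied for Nedd4l exceed its longest transcript there (7787 bases), so they cannot be an average over those forms. For the other 8 members the implied lengths were below that of the longest transcript. For the other 7 members the implied lengths differed by at most 1.97%. Among 5205 genes with 500 reads or more in both libraries, 7.19% had implied lengths that differed by more than 0.1 on the log2 scale. Nedd4 had an implied length of 5328 bases in dsNat10, 171 bases below its longest GENCODE transcript (5499 bases), while 304 genes with a single annotated transcript lay a median of 187 bases below theirs. In dsGFP the 11 reads of Nedd4 implied 5393 bases, and since FPKM were rounded to 0.07 the length could lie between 5033 and 5808 bases.

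Itch, Smurf1 and Smurf2 were the members with lower levels in dsNat10, each short of the size rule. Itch (chromosome 2, 155133481 to 155226855, Entrez gene 16396), a ligase named after the itching of mice that lack it and known for acting on JunB, had 1387 reads in dsNat10 and 2671 in dsGFP, 1.91-fold lower (1.79 to 2.04). In TPM Itch stood at 14.1 in dsNat10 and 25.9 in dsGFP. Smurf2 (chromosome 11, 106820061 to 106920747, Entrez gene 66313) had 250 reads in dsNat10 and 479 in dsGFP, 1.90-fold lower (1.62 to 2.22). Smurf1 (chromosome 5, 144876495 to 144965899, Entrez gene 75788) had 180 reads in dsNat10 and 313 in dsGFP, 1.72-fold lower (1.43 to 2.08). The Smurfs act on Smad proteins and receptors of the TGF-beta and BMP pathways, and Smurf1 also on the GTPase RhoA. They were low in both libraries, at 1.87 TPM (Smurf1) and 2.53 TPM (Smurf2) in dsNat10 against 3.10 and 4.59 TPM in dsGFP. Their log2 ratios were -0.92 for Itch, -0.85 for Smurf2 and -0.70 for Smurf1. Ratios as low were held by 9.86% of genes of like mean CPM for Itch, 25.7% for Smurf2 and 32.0% for Smurf1.

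Of the adaptors, Ndfip1 differed more than Ndfip2. Ndfip1 (chromosome 18, 38418907 to 38465197, Entrez gene 65113), known to control Itch in T cells and the uptake of metals with Wwp2, was the most abundant member, at 391 TPM in dsNat10 and 203 TPM in dsGFP. It had 12207 reads in dsNat10 and 6674 in dsGFP, 1.85-fold higher (1.79 to 1.90), with a log2 ratio of 0.88 that was short of the rule. Of 302 genes of like mean CPM, 9 had a ratio as high (2.98%). Ndfip2 (chromosome 14, 105258591 to 105309298, Entrez gene 76273) had 943 reads in dsNat10 and 802 in dsGFP, 1.19-fold higher (1.08 to 1.31). In TPM it stood at 22.1 in dsNat10 and 17.5 in dsGFP, so Ndfip1 exceeded Ndfip2 17.7-fold in dsNat10 and 11.6-fold in dsGFP.

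**Figure D2:**
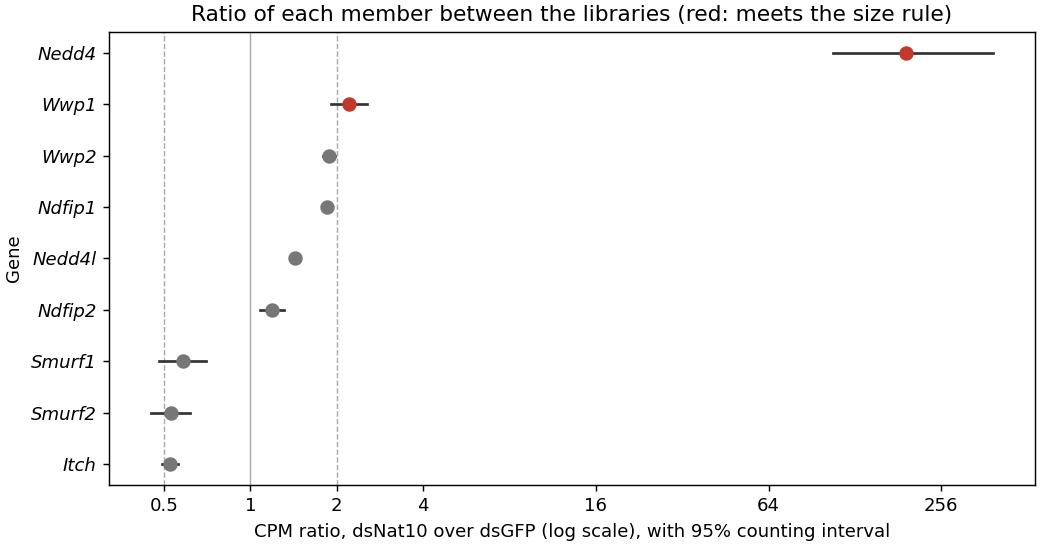
CPM ratio of dsNat10 over dsGFP for each member on a log axis, with its exact 95% counting interval as a line and the dashed lines at ratios of 0.5 and 2. Nedd4 stands apart at 193, Wwp1 is just past 2, and the other 7 lie between the dashed lines.

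By the size rule 2 of the 9 members were higher (22.2%) and 0 were lower, against 15.2% of all 8738 genes called higher and 15.3% called lower. With Nedd4 left aside, since its ratio led to the choice of the family, Wwp1 alone was called. At a lower limit of 0.58 in size on the log2 scale, about 1.5-fold, 4 members were higher (Nedd4, Wwp1, Wwp2 and Ndfip1) and 3 lower (Itch, Smurf1 and Smurf2), against 25.3% of all genes called higher and 24.0% called lower. All 9 passed the mean filter. The median log2 ratio of the members was 0.51, beside 0.01 over all genes tested, with 6 members above 0 and 3 below. Both the median and the 6 above 0 include Nedd4, whose ratio led to the choice, so they only describe the chosen members.

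In order of TPM, the members ran in dsNat10 from Ndfip1 through Wwp2, Nedd4l, Ndfip2, Nedd4, Itch, Wwp1 and Smurf2 to Smurf1. In dsGFP the order was Ndfip1, Wwp2, Itch, Ndfip2, Nedd4l, Smurf2, Smurf1, Wwp1 and Nedd4. Ndfip1, Wwp2 and Ndfip2 held the same places in both, Nedd4 stood at place 5 in dsNat10 and 9 in dsGFP, and Itch at place 6 in dsNat10 and 3 in dsGFP. Nedd4l, Ndfip2 and Nedd4 lay between 20.3 and 24.4 TPM in dsNat10, and without replicates their order there has no error to be set against. Together the 7 ligases summed to 133 TPM in dsNat10 and 80.0 TPM in dsGFP, and without Nedd4 to 113 TPM in dsNat10 and 79.9 TPM in dsGFP. Nedd4 made up 15.3% of the ligase sum in dsNat10 and 0.125% in dsGFP. The TPM of Nedd4l rest on lengths above its longest transcript and are uncertain. The places of members below Ndfip1, the ligase sums and the share of Nedd4 are therefore uncertain too.

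**Figure D3:**
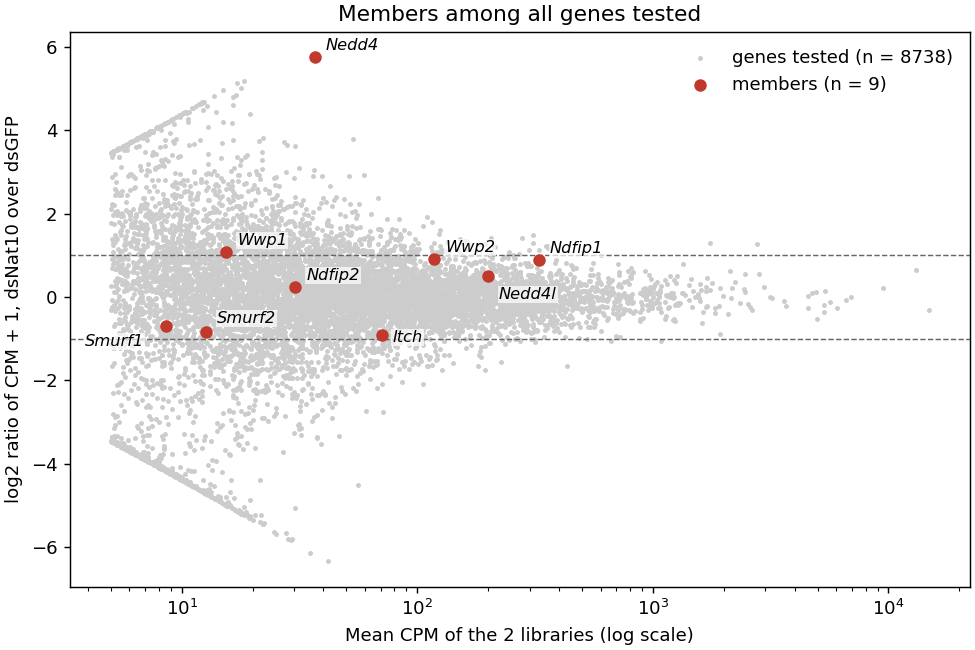
Log2 ratio of CPM plus 1, dsNat10 over dsGFP, against the mean CPM of the libraries on a log axis, for 8738 genes (grey) and the 9 members (red), with dashed lines at 1 and -1. Nedd4 is the topmost point at 5.75, and the other members lie within the cloud of genes of like abundance.

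Other HECT ligases, which share the catalytic domain and mostly lack WW domains, were looked at as 20 genes, of which 17 were in the table and 13 passed the mean filter. By the size rule 5 were higher (38.5% of those that passed) and 1 was lower, against 15.2% of all genes called higher and 15.3% called lower, with a list median of 0.30 on the log2 scale. The number higher was 3 in FPKM and 3 with the filter raised to 20 CPM, settings for which the share of all genes was not at hand. Hace1, a ligase known to act on Rac1, had 1256 reads in dsNat10 and 172 in dsGFP, 7.38-fold higher (6.29 to 8.70). Ube3a, the ligase lost in Angelman syndrome, had 845 in dsNat10 and 192 in dsGFP, 4.45-fold higher (3.80 to 5.23). Ube3c and Hectd3, chosen after seeing their values, were also higher, at 2.17-fold and 2.13-fold. Arel1 had 0 reads in dsNat10 and 542 in dsGFP, at least 145-fold lower by the counting interval. The most abundant gene of this list in TPM, Trip12, had 10616 reads in dsNat10 and 10758 in dsGFP. Hecw1 and Hecw2, the remaining ligases with WW domains, were among the 3 that are not analysed here.

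The enzymes that act on ubiquitin before HECT ligases were looked at as 9 genes, the activating enzyme Uba1 and conjugating enzymes of the Ube2d, Ube2e and Ube2l groups. Of these, 7 passed the filter and 0 were called in either direction, against 15.2% of all genes called higher and 15.3% called lower, with a list median of 0.04 on the log2 scale. Ube2l3, a conjugating enzyme that works with HECT ligases, was the most abundant in TPM and had 10642 reads in dsNat10 and 13832 in dsGFP (log2 ratio -0.36). Ube2d2a had 1912 reads in dsNat10 and 1308 in dsGFP (log2 ratio 0.55). Ube2e1 (-0.50) and Ube2l6 (-0.73, or 1.74-fold lower) have fractional counts and are uncertain. Both genes that the filter removed were at 0 in dsNat10. Ube2d1 had 0 reads in dsNat10 and 74 in dsGFP, at least 19.4-fold lower by the counting interval. Ube2e2 had 0 in dsNat10 and 7 in dsGFP.

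Further adaptors and regulators, such as arrestin-like proteins that bring cargo to the ligases, went both ways. Of 22 genes, 20 were in the table and 15 passed, with a median log2 ratio of -0.35. Of the 15, 2 were higher and 4 lower, against 15.2% of all genes called higher and 15.3% called lower. Arrdc2, an alpha-arrestin, had 465 reads in dsNat10 and 135 in dsGFP, 3.48-fold higher (2.87 to 4.25), and its relative Arrdc3, named after its value was seen, was 3.04-fold higher (2.71 to 3.41). The beta-arrestins were lower: Arrb1 had 0 reads in dsNat10 and 441 in dsGFP, at least 118-fold lower by the counting interval. Arrb2 had 68 in dsNat10 and 310 in dsGFP, 4.51-fold lower (3.46 to 5.96). Wbp2, a WW-binding protein, and Usp9x, a deubiquitinase that protects Itch, were also lower by 2.90-fold and 2.56-fold and were named after their values were seen. Ywhae, the most abundant gene of this list in TPM and a 14-3-3 protein, had 21653 reads in dsNat10 and 21356 in dsGFP.

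Known substrates and cargo sorters of the family were 44 genes, of which 38 were in the table and 30 passed. Of the 30, 6 were higher and 4 lower, against 15.2% of all genes called higher and 15.3% called lower. The list median was 0.30 on the log2 scale. Map3k2, a kinase degraded through Smurf1, had 333 reads in dsNat10 and 3 in dsGFP, which gives a ratio of 112 with a counting interval of 38.0 to 547. Eps15, an endocytic adaptor that Nedd4 ubiquitinates, had 144 reads in dsNat10 and 1716 in dsGFP, 11.8-fold lower (9.95 to 14.1). Dvl2, a Wnt signalling protein, had 0 in dsNat10 and 330 in dsGFP, at least 88.1-fold lower by the counting interval. Slc3a2, an amino acid transporter subunit and the most abundant of the list in TPM, had a log2 ratio of 0.28 with fractional counts. Named after their values were seen, Prickle1, a planar polarity protein and Smurf substrate, was 8.57-fold higher (7.24 to 10.2), and of the angiomotins Amotl1 was 3.61-fold higher (2.95 to 4.45) and Amot 3.44-fold lower (2.99 to 3.96). Amotl2, the angiomotin with the most reads, had 2062 in dsNat10 and 2220 in dsGFP (log2 ratio -0.09). The other called members were Jun, Lats2 and Tgfbr1, which were higher, and Junb, which was lower. Pou5f1, a substrate of Wwp2, had 4468 reads in dsNat10 and 7489 in dsGFP, 1.66-fold lower (1.60 to 1.72) and short of the rule. Arel1, Arrb1 and Dvl2, which are at 0 in dsNat10, are the lowest of their lists by log2 ratio. The list medians are therefore the same with these genes at their bounds, by construction. Zeros were frequent in that library, with 2657 genes at 0 in dsNat10 against 458 in dsGFP.

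**Figure D4:**
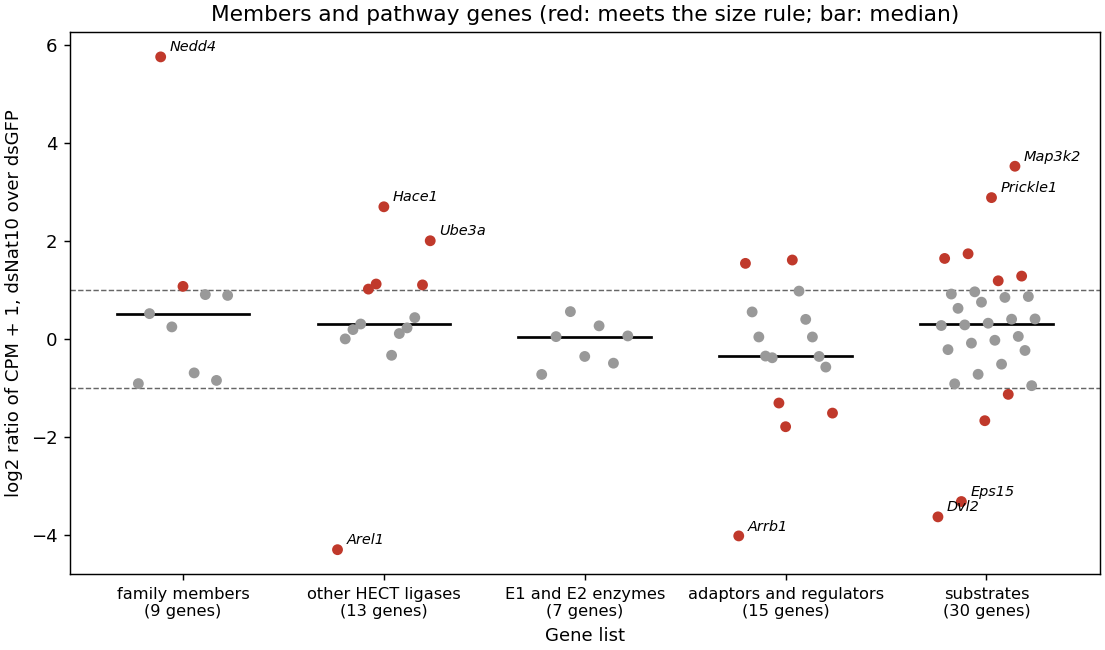
Log2 ratio of CPM plus 1, dsNat10 over dsGFP, of the members and of the genes of 4 pathway lists that passed the mean filter, 1 point per gene, red where the size rule was met and with the list's median as a bar. The 7 activating and conjugating enzymes that passed lie between the dashed lines at 1 and -1, while the other lists hold genes on both sides, and Nedd4 at 5.75 is the highest point.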

How the data were processed

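Polyadenylated RNA of 2 libraries was made by SMART-seq2 and sequenced with paired ends, per the labels' protocols. Trim Galore, HISAT with the GRCm38 genome, and HTSeq are the tools named in the submitters' processing notes, with no versions. The authors deposited estimated counts without normalization. Values are fractional for 23.2% of genes, and no source used here names the program that made them. The deposited FPKM and TPM divide by length and library total.

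Estimated counts were rounded and expressed as CPM with TMM scaling (edgeR 4.0.16, R 4.3.3), which moved the log2 ratio by -0.03. Log2 ratios use CPM plus 1, which understates differences of low genes, while folds have no pseudocount. With 1 library per group no p-value was computed. The code for calls and intervals was checked on simulated Poisson counts with planted changes. Such counts lack PCR copies and differences between embryos, so the check covers the code and not the calls in these libraries. Entrez identifiers of 12800 genes matched RefSeq GRCm38.p6. The kit does not mark strand, so overlapping genes cannot be told apart. No gene in the table overlaps a member. RefSeq genes outside the table, mostly noncoding genes and pseudogenes, overlap Nedd4l, Itch, Wwp1, Wwp2, Smurf1 and Ndfip2. Their part in the reads of these members was not tested. Members, gene lists and rules were chosen with earlier results of these data known. Named genes are Nat10, Nop2, the members, from each list the 3 largest log2 ratios and the most abundant gene, and, for members that met the rule, the 3 nearest patterns; neighbours are the nearest measured gene on each side. A gene that counts in the list totals is not reported here.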

Additional observations from a re-analysis of the deposited data

How the results depend on the processing

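The 9 alternatives were plain totals, DESeq2 size factors (DESeq2 1.42.0), TPM, FPKM, pseudocounts of 5 and 0.1, no filter, a mean of 20 CPM or more, and a log2 threshold of 0.58. All 78 log2 ratios of members under them kept their sign, and 12 moved by more than the counting error of the ratio. Nedd4 was called higher under all 9, with log2 ratios from 3.80 in FPKM to 7.25 with a pseudocount of 0.1. Wwp1 lost its call in TPM, in FPKM and with a pseudocount of 5, though with no pseudocount its fold was 2.30 in TPM and 2.25 in FPKM against 2.21 in CPM, and was left out at a mean of 20 CPM, while Wwp2 gained one in TPM and FPKM. At the 0.58 threshold 4 members were higher and 3 lower, against 25.3% and 24.0% of all genes. With a pseudocount of 5, 1 member was higher, and 1 at a mean of 20 CPM, where 6 members passed. The median of the members was 0.71 in TPM, 0.66 in FPKM and 0.70 at a mean of 20 CPM. At the 0.58 threshold 1 conjugating enzyme was lower, and 12 substrates were higher and 7 lower. Without a filter 1 conjugating enzyme, 3 other HECT ligases and 8 substrates were lower, and the median of all genes was -0.14. At a mean of 20 CPM, where fewer genes are tested, 1 adaptor was higher and 2 lower, 3 HECT ligases were higher and 0 lower, and 2 substrates were higher and 1 lower. In FPKM 3 HECT ligases were higher. Apart from the 0.58 threshold, the share of all genes called under each alternative was not at hand. These counts therefore show only how calls moved with the setting and cannot be set against all genes. No paired analysis was possible because each group has 1 library. Depth limits Nedd4 in dsGFP, where 11 reads set the width of its interval.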

Other observations

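Next to Ndfip1, Ndfip2, Nedd4l and Smurf2 lay genes with larger differences than these members. Spry4, an inhibitor of receptor tyrosine kinase signalling and the nearest measured gene beyond Ndfip1 on chromosome 18, had 419 reads in dsNat10 and 36 in dsGFP, 11.8-fold higher (8.36 to 17.0), while Gnpda1 on the other side had 1115 in dsNat10 and 2835 in dsGFP, 2.52-fold lower (2.35 to 2.70). Malt1, a protease of immune signalling and the nearest measured gene beyond Nedd4l, had 1162 reads in dsNat10 and 95 in dsGFP, with fractional counts. Cep95, a centrosome protein and the measured gene nearest to Smurf2, had 6 reads in dsNat10 and 158 in dsGFP, also with fractional counts. The genes on either side of Itch, Ahcy and Dynlrb1, had log2 ratios of 0.81 and -0.24, opposite in sign to each other and smaller in size than that of Itch. Those beside Wwp2 (0.14 and -0.34) and Smurf1 (0.34 for Trrap, with Kpna7 at 0 reads in dsNat10 and 1 in dsGFP) were also smaller than the members' own.

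Low members of the pathway lists that the mean filter removed held further genes at 0 in 1 library. Zeros were frequent in dsNat10 across the table: of 12836 genes, 2657 were at 0 in dsNat10 and 458 in dsGFP. Arrdc4, an alpha-arrestin like Arrdc2 and Arrdc3, had 241 reads in dsNat10 and 0 in dsGFP, at least 65.5-fold higher by the counting interval. Its relative Txnip, which controls glucose uptake, had 0 reads in dsNat10 and 69 in dsGFP, at least 18.0-fold lower by the counting interval. Insr, the insulin receptor, had 0 in dsNat10 and 150 in dsGFP, and Smad5, a Smad of the BMP pathway, 0 in dsNat10 and 133 in dsGFP. The HECT ligases G2e3 and Herc3 had 0 reads in dsNat10 and 122 and 70 in dsGFP, and Runx2, a transcription factor and Smurf1 substrate, 0 in dsNat10 and 90 in dsGFP. Among those with under 10 reads in the other library, Laptm5 had 0 in dsNat10 and 8 in dsGFP, Ldlrad4 6 in dsNat10 and 0 in dsGFP, and Herc2 1 in dsNat10 and 0 in dsGFP.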
